A study of Drosophila melanogaster with 18 samples.

Results

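The genes described here encode the machinery that copies chromosomal DNA in *Drosophila* cells, from the origin recognition complex to ribonucleotide reductase, together with the regulators that open S phase. They were chosen by function. A probe was assigned to a gene where the annotation number of its target (CG number) led to the gene's current symbol or an older synonym. Of 35 named genes, 34 had at least 1 probe, with 53 probes in all, out of 13084 named genes and 32162 probes on the array. No probe was assigned to *lat*, the Orc3 subunit of the origin recognition complex. All 53 probes passed the filter on dim signals, and 13 genes had more than 1 probe. Each gene is given by its probe with the highest mean signal over all arrays.

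Signals came from 18 one-colour arrays hybridised with RNA of S2R+ cells, an adherent line of embryonic origin. Cells received *His2Av* dsRNA (H2Av RNAi), directed at the *Drosophila* histone H2A variant, or dsRNA of bacterial *lacZ* as control (lacZ RNAi). After 4 days at 25 °C, aliquots were kept for 24 h at 14, 25 or 30 °C. This gave 6 groups with 3 replicates each, all of 1 cell line and all exposed to dsRNA. Fewer cells had been plated for the warmer temperatures. The comparisons ask how the genes respond to temperature and whether that response depends on *His2Av*.

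Replication is prepared in G1 phase, when the origin recognition complex, Cdc6 and the Cdt1 protein (encoded by *dup* in *Drosophila*) load the MCM helicase onto DNA. In S phase, Cdc45 and the GINS complex turn the loaded helicase into an active fork. The PCNA clamp, which the RfC clamp loader places on DNA, then tethers the polymerases. E2F transcription factors are known to drive many of these genes as cells enter S phase, and Cyclin E with its kinase starts that entry. In RNA from whole cultures, fewer cells in S phase and less transcript per cell cannot be told apart.

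The targeted transcript was checked first, by the brighter of its 2 probes. The other probe is not given here. *His2Av* signals on the log2 scale were 15.26, 15.53 and 15.79 after lacZ RNAi at 14 °C and 11.90, 13.65 and 11.61 after H2Av RNAi. At 25 °C they were 15.04, 16.41 and 16.22 against 11.92, 13.82 and 12.73. At 30 °C they were 15.96, 16.25 and 16.17 against 12.10, 12.10 and 12.33. No H2Av array reached a lacZ array, and replicate 2 was the highest H2Av array at 14 and 25 °C. *His2Av* changed by -3.14, -3.07 and -3.95, each ± 0.52 (SE of the fit) at 14, 25 and 30 °C (limma, adjusted p = 0.00244, 0.00109 and 0.000197).

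Between 54.6 and 66.4% of probes were well above background on each array. Arrays of a group correlated with r between 0.957 and 0.995 over the 21775 probes kept, with the lowest values for lacZ replicate 1 at 25 °C and lacZ replicate 2 at 30 °C. The 3 arrays of a group sat together on 1 slide with no other group, and effects of slide and group cannot be told apart. All 8 hemocyte markers were well above background on all 18 arrays and 2 of 3 fat body markers on none. All 3 neuron markers and 2 of 3 muscle markers were also above background on every array, with summed log2 signals from 12.66 to 15.10 and from 9.71 to 13.79. So were 2 of 3 germ line markers. The summed log2 signal of 3 germ line markers ranged from 7.99 to 8.79 after lacZ RNAi at 14 °C and from 10.80 to 10.96 after H2Av RNAi at 30 °C, with *nos* group means between 3.99 and 10.09. The summed hemocyte signal stayed between 16.68 and 17.33. Bright markers such as *crq* (group means from 15.46 to 15.81) set this sum. Group means of dimmer hemocyte markers ranged from 5.78 to 7.78 for *Hml*, 5.17 to 6.95 for *NimC1* and 9.04 to 10.88 for *He*. The part of all these markers in the results below was not tested.

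Most replication genes were lower at 14 °C than at 30 °C, and none was called higher in the main fit. After lacZ RNAi, 23 of 34 genes fell (limma, adjusted p below 0.05 over all probes), where 16.6% of all probes were called lower. After H2Av RNAi, 27 of 34 fell, against 20.2% of all probes. Of 21775 probes, 3334 and 3966 were called higher after lacZ and H2Av RNAi. The median log2 change over the 34 genes was -1.0 after lacZ RNAi and -1.39 after H2Av RNAi, while the medians over all probes were -0.01 and -0.03. All 23 genes called after lacZ RNAi were also called after H2Av RNAi, and 7 genes were called in neither. With both RNAi groups averaged, 28 of 34 fell, against 26.2% of all probes. Below, a change is given on the log2 scale with the standard error (SE) of the fit, a level as mean log2 signal ± SD (n = 3), and an adjusted p comes from the same limma fit.

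**Figure D1:**
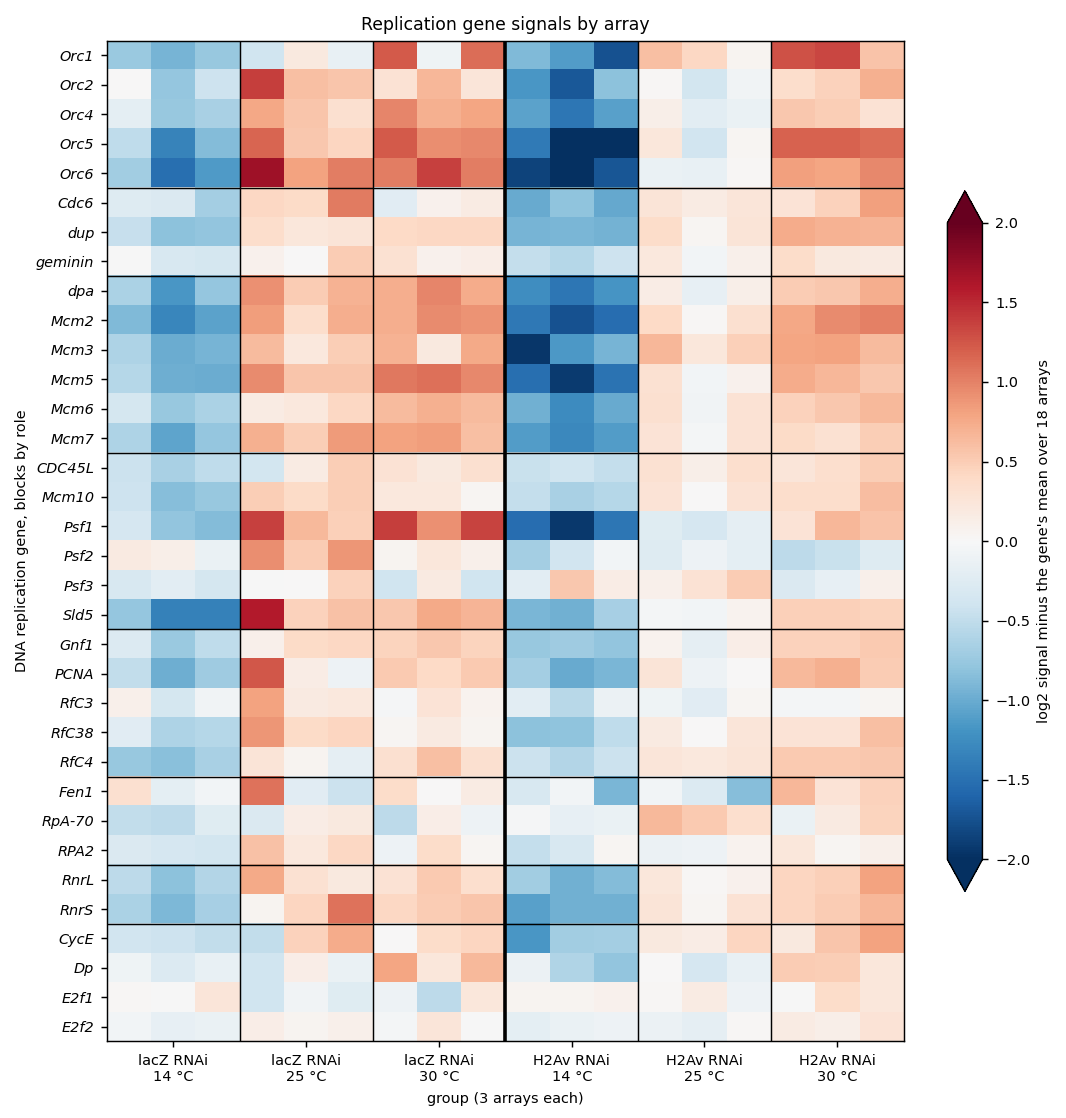
Log2 signal of 34 DNA replication genes (rows, in blocks by role) on 18 arrays (columns, 3 per group), as the difference from the gene's mean over the 18 arrays (colour scale from -2 to 2). The 14 °C columns are blue for most genes after both RNAi treatments. *E2f2* is close to white throughout, and *E2f1* and *RfC3* are pale on most arrays.

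The origin recognition complex marks origins and recruits the other loading factors. All 5 measured subunits fell at 14 °C after both RNAi treatments. *Orc6* (CG1584), the smallest subunit, had log2 signals of 10.63, 9.82 and 10.20 at 14 °C after lacZ RNAi against 12.35, 12.70 and 12.35 at 30 °C. After H2Av RNAi its signals were 9.48, 8.97 and 9.61 against 12.14, 12.12 and 12.29. The groups did not overlap in either case. *Orc6* thus fell by 2.25 ± 0.25 (SE), or 4.76-fold, after lacZ RNAi (adjusted p = 1.41e-05), and by 2.83 ± 0.25, or 7.11-fold, after H2Av RNAi (adjusted p = 1.72e-06).

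*Orc5* (CG7833), an ATP-binding subunit, had signals of 9.09, 8.26 and 8.73 at 14 °C and 10.82, 10.53 and 10.56 at 30 °C after lacZ RNAi. After H2Av RNAi it had 8.18, 7.17 and 7.54 at 14 °C and 10.77, 10.78 and 10.71 at 30 °C. The 30 °C levels lay within 0.3 of each other, whereas at 14 °C each H2Av array was below every lacZ array. The decrease of this probe after H2Av RNAi was the largest of all 34 genes in that comparison, at -3.12 ± 0.28 or 8.72-fold (adjusted p = 1.9e-06), and after lacZ RNAi the change was -1.95 ± 0.28 (adjusted p = 0.000118). A second *Orc5* probe changed by 0.12 ± 0.17 after lacZ RNAi (adjusted p = 0.634) and by -1.30 ± 0.17 after H2Av RNAi (adjusted p = 4.11e-05), so the size of the *Orc5* decrease, and its call after lacZ RNAi, depend on the probe.

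*Orc1* (CG10667), which binds ATP and whose level is known to vary over the cell cycle, changed by -1.56 ± 0.33 after lacZ RNAi (adjusted p = 0.0026) and by -2.30 ± 0.33 after H2Av RNAi (adjusted p = 0.00011). Its lacZ signals at 30 °C were 14.36, 13.05 and 14.26, with replicate 2 more than 1 unit below the others but still above the 14 °C signals of 12.40, 12.21 and 12.38. *Orc4* changed by -1.37 ± 0.18 and -1.64 ± 0.18 in the same 2 comparisons. *Orc2* changed by -0.80 ± 0.27 (adjusted p = 0.0368) and -1.74 ± 0.27 (adjusted p = 0.000206). Both further *Orc2* probes also fell after lacZ RNAi, by 1.21 and 1.07.

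Among licensing factors, *dup* (CG8171), the *Drosophila* Cdt1, had closely spaced replicates. Its signals were 13.12, 12.76 and 12.79 at 14 °C and 13.98, 14.00 and 14.00 at 30 °C after lacZ RNAi. They were 12.65, 12.66 and 12.63 against 14.32, 14.28 and 14.26 after H2Av RNAi. No arrays overlapped, and *dup* changed by -1.10 ± 0.13 (adjusted p = 2.54e-05) and -1.64 ± 0.13 (adjusted p = 8.43e-07). *Cdc6*, which helps to load the helicase, changed by -0.41 ± 0.20 after lacZ RNAi (adjusted p = 0.139) and fell by 1.46 ± 0.20 after H2Av RNAi (adjusted p = 7.51e-05). *geminin*, the Cdt1 inhibitor that blocks a second round of loading, showed the same pattern at a smaller size, with -0.41 ± 0.16 (adjusted p = 0.0607) and -0.74 ± 0.16 (adjusted p = 0.00195). Thus 1 of 3 licensing genes was called between 14 and 30 °C after lacZ RNAi and 3 of 3 after H2Av RNAi. Between 14 and 25 °C, 2 of 3 and 3 of 3 were called lower at 14 °C.

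The MCM helicase unwinds DNA ahead of the polymerases. Its 6 subunit genes all fell at 14 °C after both RNAi treatments, and the changes of different subunits lay close together, from -1.94 to -1.24 after lacZ RNAi and from -2.47 to -1.56 after H2Av RNAi. *Mcm2* (CG7538) had signals of 13.16, 12.74 and 12.97 at 14 °C and 14.76, 14.98 and 14.93 at 30 °C after lacZ RNAi. After H2Av RNAi its signals were 12.61, 12.29 and 12.52 against 14.81, 14.98 and 15.05. The 2 temperatures were separated by more than 1.5 units, with changes of -1.94 ± 0.17 or 3.83-fold (adjusted p = 2.32e-06) and -2.47 ± 0.17 or 5.54-fold (adjusted p = 2.41e-07).

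*Mcm5* (CG4082) gave 11.85, 11.44 and 11.43 at 14 °C against 13.47, 13.53 and 13.39 at 30 °C after lacZ RNAi. After H2Av RNAi it gave 10.92, 10.51 and 10.95 against 13.17, 13.08 and 12.96. Here the H2Av arrays were lower than the lacZ arrays at both temperatures. Its changes between temperatures were -1.89 ± 0.17 and -2.27 ± 0.17. *dpa*, which encodes Mcm4, changed by -1.68 ± 0.17 and -1.88 ± 0.17, *Mcm3* by -1.40 ± 0.24 and -2.08 ± 0.24, and *Mcm6* by -1.24 ± 0.15 and -1.63 ± 0.15. *Mcm7* changed by -1.56 ± 0.15 after either treatment. One H2Av array at 14 °C stood apart for *Mcm3*, with 11.68 against 12.48 and 12.69.

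The genes of helicase activation were divided. GINS is a complex of Psf1, Psf2, Psf3 and Sld5 in equal numbers, yet the 4 transcripts did not change together between 14 and 30 °C. *Psf1* (CG9187) had signals of 9.41, 8.96 and 8.87 at 14 °C and 11.12, 10.66 and 11.10 at 30 °C after lacZ RNAi. It had 8.22, 7.82 and 8.30 against 10.01, 10.40 and 10.31 after H2Av RNAi. *Psf1* fell by 1.88 ± 0.24 (adjusted p = 4.13e-05) and 2.13 ± 0.24 (adjusted p = 1.2e-05), and in every one of these groups the H2Av arrays lay below the lacZ arrays.

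*Sld5* (CG14549) fell by 1.81 ± 0.24 and 1.31 ± 0.24, from signals of 12.31, 11.73 and 11.72 against 13.62, 13.84 and 13.75 after lacZ RNAi and 12.16, 12.12 and 12.41 against 13.55, 13.56 and 13.52 after H2Av RNAi. By contrast, *Psf2* (CG18013) had 12.26, 12.20 and 11.95 at 14 °C and 12.13, 12.31 and 12.18 at 30 °C after lacZ RNAi, so that the arrays overlapped. Its changes were -0.07 ± 0.17 (adjusted p = 0.804) and 0.03 ± 0.17 (adjusted p = 0.897). *Psf3* changed by -0.08 ± 0.22 (adjusted p = 0.811) and 0.28 ± 0.22 (adjusted p = 0.346), although a second *Psf3* probe fell by 0.73 ± 0.26 after lacZ RNAi (adjusted p = 0.045). *CDC45L*, the Cdc45 partner of GINS, changed by -0.79 ± 0.18 and -0.80 ± 0.18. *Mcm10*, which acts at the activated helicase, changed by -0.83 ± 0.15 and -1.0 ± 0.15, and both genes were called after either treatment.

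**Figure D2:**
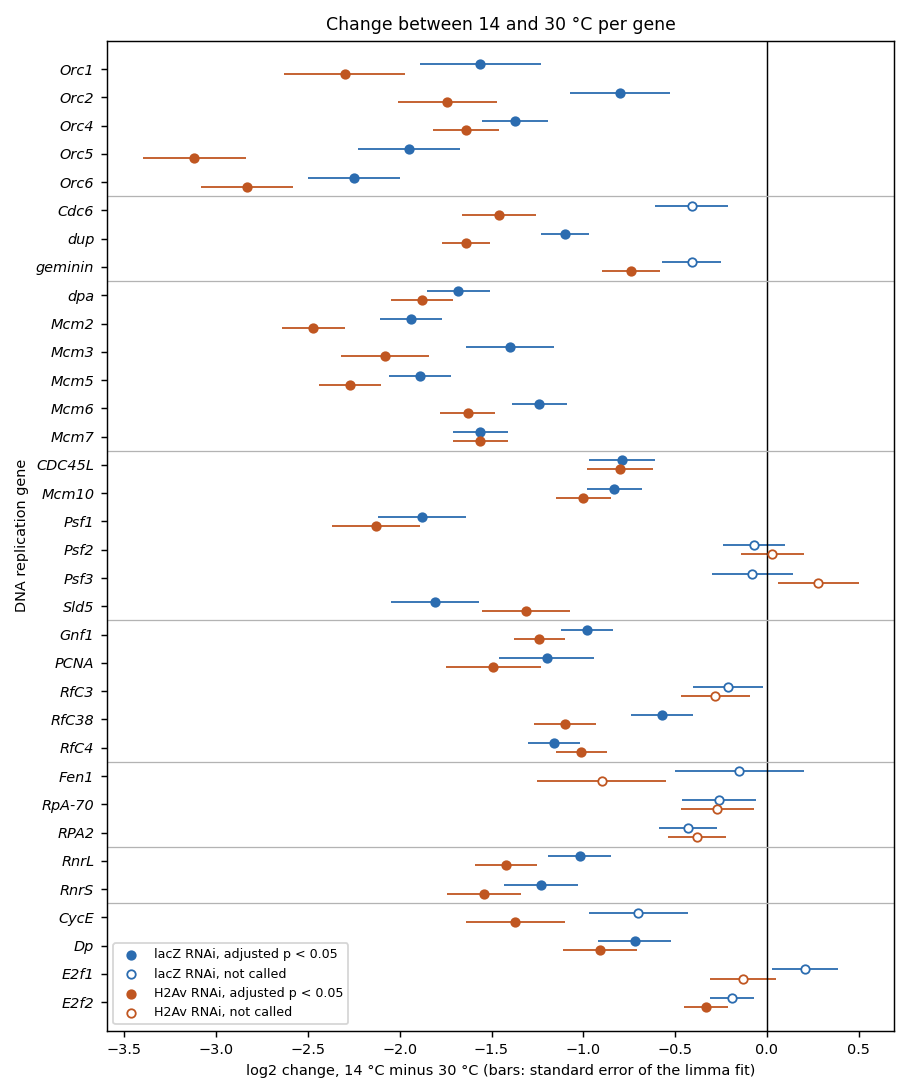
Log2 change between 14 and 30 °C (x axis) of 34 DNA replication genes (y axis, grey lines separate roles) after lacZ RNAi (blue) and H2Av RNAi (orange), with SE bars and filled points for adjusted p below 0.05. Origin recognition and MCM genes lie between -3.12 and -0.80, whereas *Psf2*, *Psf3*, *RfC3*, *RpA-70* and *E2f1* lie within 0.3 of 0 after both treatments.

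The sliding clamp and its loader also fell, except for 1 loader subunit. *PCNA* (CG9193), the clamp, had signals of 15.89, 15.40 and 15.67 at 14 °C against 16.90, 16.77 and 16.90 at 30 °C after lacZ RNAi. They were 15.69, 15.36 and 15.46 against 17.02, 17.08 and 16.89 after H2Av RNAi. It changed by -1.20 ± 0.26 (adjusted p = 0.00312) and -1.49 ± 0.26 (adjusted p = 0.00055). *Gnf1*, the large loader subunit, changed by -0.98 ± 0.14 and -1.24 ± 0.14. *RfC4* changed by -1.16 ± 0.14 and -1.01 ± 0.14, and *RfC38* by -0.57 ± 0.17 (adjusted p = 0.0221) and -1.10 ± 0.17 (adjusted p = 0.000224). For *RfC3*, the values were -0.21 ± 0.19 (adjusted p = 0.436) and -0.28 ± 0.19 (adjusted p = 0.27), and its arrays overlapped after lacZ RNAi.

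Of the single-strand binding protein RPA, neither *RpA-70* nor *RPA2* was called between 14 and 30 °C within a single RNAi treatment. *RpA-70* changed by -0.26 ± 0.20 and -0.27 ± 0.20 and *RPA2* by -0.43 ± 0.16 (adjusted p = 0.0579) and -0.38 ± 0.16 (adjusted p = 0.083). With both RNAi groups averaged, *RPA2* fell by 0.41 ± 0.12 (adjusted p = 0.0094), a call lost with scaling to the 75th percentile, where the change was -0.26. *RPA3*, the small RPA subunit from the list of other replication genes, was named after its values were seen and changed by -0.63 ± 0.17 (adjusted p = 0.0128) and -0.38 ± 0.17 (adjusted p = 0.0982). *Fen1*, the nuclease that trims flaps on the lagging strand, was read by a single dim probe with group means between 4.60 and 5.5. It gave -0.15 ± 0.35 and -0.90 ± 0.35, which did not pass the test. Both ribonucleotide reductase subunits, which supply deoxynucleotides, fell. The large subunit *RnrL* changed by -1.02 ± 0.17 (adjusted p = 0.000383) and -1.42 ± 0.17 (adjusted p = 2.18e-05), and the small subunit *RnrS* by -1.23 ± 0.20 (adjusted p = 0.000364) and -1.54 ± 0.20 (adjusted p = 4.69e-05).

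Of 4 G1/S regulators, 1 fell after lacZ RNAi and 3 after H2Av RNAi. *E2f1* (CG6376), the activating E2F, had signals of 16, 15.96 and 16.21 at 14 °C and 15.88, 15.45 and 16.20 at 30 °C after lacZ RNAi. After H2Av RNAi they were 16.03, 16.03 and 16.06 against 15.97, 16.34 and 16.20. The groups overlapped in both cases, with changes of 0.21 ± 0.18 (adjusted p = 0.4) and -0.13 ± 0.18 (adjusted p = 0.611). *E2f2*, the repressing E2F, changed by -0.19 ± 0.12 (adjusted p = 0.272) and -0.33 ± 0.12 (adjusted p = 0.0447). The latter call was lost with scaling to the 75th percentile, where the change was -0.26. *Dp*, the partner of both E2F proteins, changed by -0.72 ± 0.20 (adjusted p = 0.0139) and -0.91 ± 0.20 (adjusted p = 0.00284). *CycE*, which encodes Cyclin E, changed by -0.70 ± 0.27 (adjusted p = 0.0593) and fell by 1.37 ± 0.27 (adjusted p = 0.00115).

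**Figure D3:**
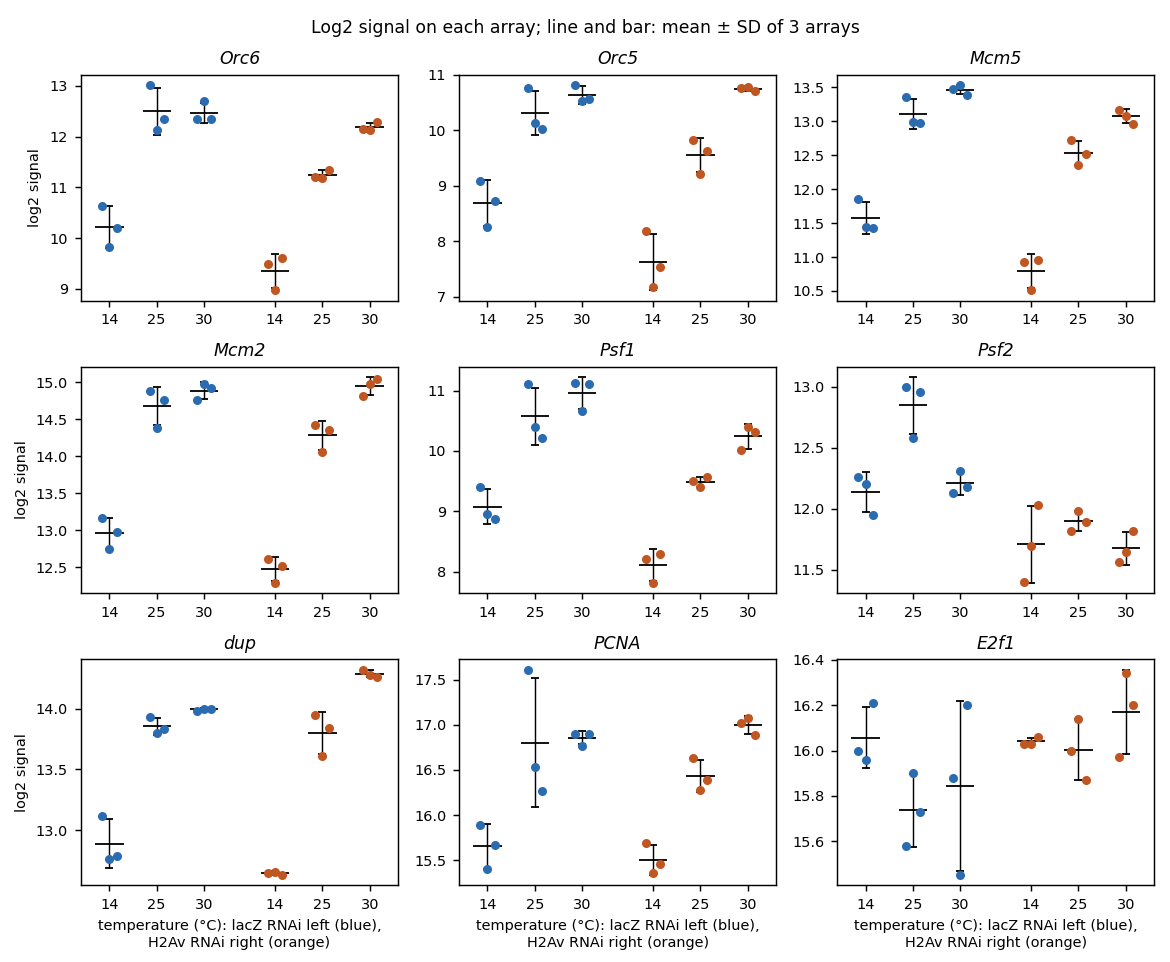
Log2 signal (y axis, a separate range in each panel) of 9 DNA replication genes on each array by temperature (x axis), after lacZ RNAi (blue) and H2Av RNAi (orange), with mean and SD of 3 arrays. The genes were chosen after their values were seen, to show decreases at 14 °C (*Orc6* to *Psf1*, *dup*, *PCNA*) beside *Psf2* and *E2f1*, whose 14 and 30 °C arrays overlap after either treatment.

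By the median over the genes, most of the difference lay between 14 and 25 °C. In this step 24 of 34 genes fell after lacZ RNAi, against 12.6% of all probes, and 25 of 34 after H2Av RNAi, against 7.06% of all probes. The median changes were -0.99 and -0.94, and 21 genes were called lower at 14 °C than at both warmer temperatures after both RNAi treatments. *Orc6* and *Sld5* had the largest decreases after lacZ RNAi, with -2.28 ± 0.25 and -2.04 ± 0.24. After H2Av RNAi these were *Orc5* and *Orc6*, with -1.93 ± 0.28 and -1.89 ± 0.25. After lacZ RNAi, *Psf2*, *Cdc6* and *RPA2* were called lower at 14 than at 25 °C, although not against 30 °C. *Psf2* signals were 12.26, 12.20 and 11.95 at 14 °C against 13, 12.58 and 12.96 at 25 °C. For *Cdc6* they were 11.82, 11.80 and 11.41 against 12.50, 12.46 and 13.12. Of these genes, only *Cdc6* was also called in this step after H2Av RNAi. In lacZ cells at 25 °C, replicate 1 was the highest array for 20 of 34 genes, as for *PCNA* (17.61 against 16.53 and 16.27) and *Sld5* (14.67 against 13.54 and 13.67). Replicate 1 was also the lowest array for 10 of 34 genes, as for *CycE* (11.05 against 12.01 and 12.29). Without this array, 25 of 34 genes fell between 25 and 14 °C after lacZ RNAi.

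Between 25 and 30 °C few genes were called. After lacZ RNAi, *Psf2* was lower at 30 °C by 0.64 ± 0.17 (adjusted p = 0.0242) and *Dp* higher by 0.69 ± 0.20 (adjusted p = 0.0357), the only calls among 34 genes, against 8.57% of all probes called lower and 6.66% called higher. With scaling to the 75th percentile, 3 genes were called lower and 0 higher, so that *Dp* was not called, and the median over the 34 genes went from 0.04 to -0.13. Neither call remained without lacZ replicate 3 at 25 °C or without replicate 1 or 3 at 30 °C, and 4 genes were called without lacZ replicate 2 at 30 °C. After H2Av RNAi, 6 genes were higher at 30 °C, against 5.77% of all probes. These were *Orc5* (1.20 ± 0.28), *Orc6* (0.94 ± 0.25), *Mcm2* (0.66 ± 0.17), *dpa* (0.55 ± 0.17), *dup* (0.48 ± 0.13) and *Gnf1* (0.47 ± 0.14). For *Orc6*, the H2Av signals were 11.20, 11.18 and 11.35 at 25 °C and 12.14, 12.12 and 12.29 at 30 °C, without overlap. This count was sensitive to single arrays. It was 3, 0 and 1 without H2Av replicate 1, 2 or 3 at 25 °C, 2, 1 and 1 without H2Av replicate 1, 2 or 3 at 30 °C, and 12 without lacZ replicate 1 at 25 °C, which is not among the arrays compared and enters only through the shared variance. Group means increased from 14 over 25 to 30 °C for 30 of 34 genes after H2Av RNAi and for 18 of 34 after lacZ RNAi. The share of all probes in this order was not computed, and the interaction of 30 against 25 °C called 0 of 34 genes. The lacZ order includes the 25 °C group, where replicate 1 was the highest array for 20 of 34 genes and the lowest for 10.

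Fewer genes were called for H2Av RNAi than for 14 °C against either warmer temperature. Compared with lacZ RNAi, 5 of 34 genes were lower at 14 °C, against 4.36% of all probes, and 9 of 34 at 25 °C, against 15.9% of all probes. At 30 °C 0 of 34 were called in limma, against 7.31% of all probes called lower. An unadjusted p below 0.05 was found for 6 of 34 genes and for 5500 of 21775 probes. The lowest adjusted p at 30 °C was 0.0589, for *Psf2*, with a change of -0.53 ± 0.17. In the main fit no gene was called higher at any single temperature, against 625, 2442 and 1059 of 21775 probes at 14, 25 and 30 °C. The median changes over the 34 genes were -0.30, -0.35 and 0.09 at 14, 25 and 30 °C. The 14 °C genes were *Orc5* (-1.06 ± 0.28), *Psf1* (-0.96 ± 0.24), *Orc6* (-0.87 ± 0.25), *Mcm5* (-0.78 ± 0.17) and *Orc4* (-0.66 ± 0.18). The 25 °C genes were *Orc6* (-1.26 ± 0.25), *Psf1* (-1.08 ± 0.24), *Orc2* (-0.98 ± 0.27), *Psf2* (-0.95 ± 0.17), *Sld5* (-0.89 ± 0.24), *dpa* (-0.68 ± 0.17), *Orc4* (-0.62 ± 0.18), *Mcm5* (-0.57 ± 0.17) and *Mcm7* (-0.51 ± 0.15). The *Sld5* value was -0.53 without lacZ replicate 1 at 25 °C, and its call was lost without H2Av replicate 1 or 2 at 25 °C, where it was -0.87 in each case.

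The genes called at 14 or 25 °C encode subunits of the origin recognition complex, the MCM helicase and GINS. *Psf2*, which did not change between 14 and 30 °C, was among the clearest at 25 °C. Its signals there were 13, 12.58 and 12.96 after lacZ RNAi and 11.82, 11.98 and 11.89 after H2Av RNAi, without overlap (adjusted p = 0.00168). *Psf1* had 11.11, 10.39 and 10.22 against 9.50, 9.40 and 9.57 at 25 °C (adjusted p = 0.00482). Other probes of the same gene did not follow at 25 °C for *Mcm7* (0.31 ± 0.59) and 1 *Orc2* probe (0.07 ± 0.36), while the third *Orc2* probe changed by -0.76 ± 0.32 (adjusted p = 0.0878).

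The counts for H2Av RNAi moved with single arrays. At 14 °C, 0 genes were called without lacZ replicate 1 or without H2Av replicate 2 at that temperature, 2 without replicate 3 of either, 3 without H2Av replicate 1, and 0 when only the 6 arrays compared were fitted. At that temperature lacZ replicate 1 was the highest lacZ array for 30 of 34 genes. Leaving out lacZ replicate 3 at 30 °C, any H2Av array at 25 °C or H2Av replicate 1 or 2 at 30 °C, which share only the variance, also left 3 calls. At 25 °C, 3 genes were called without H2Av replicate 2, which was the lowest H2Av array for 27 of 34 genes, 6 without lacZ replicate 1, and 2 when only the 6 arrays compared were fitted. At 30 °C, 2 genes were called without lacZ replicate 1 at 25 °C, and 1 without lacZ replicate 2 at 25 or 30 °C or without H2Av replicate 1 or 3 at 14 °C.

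**Figure D4:**
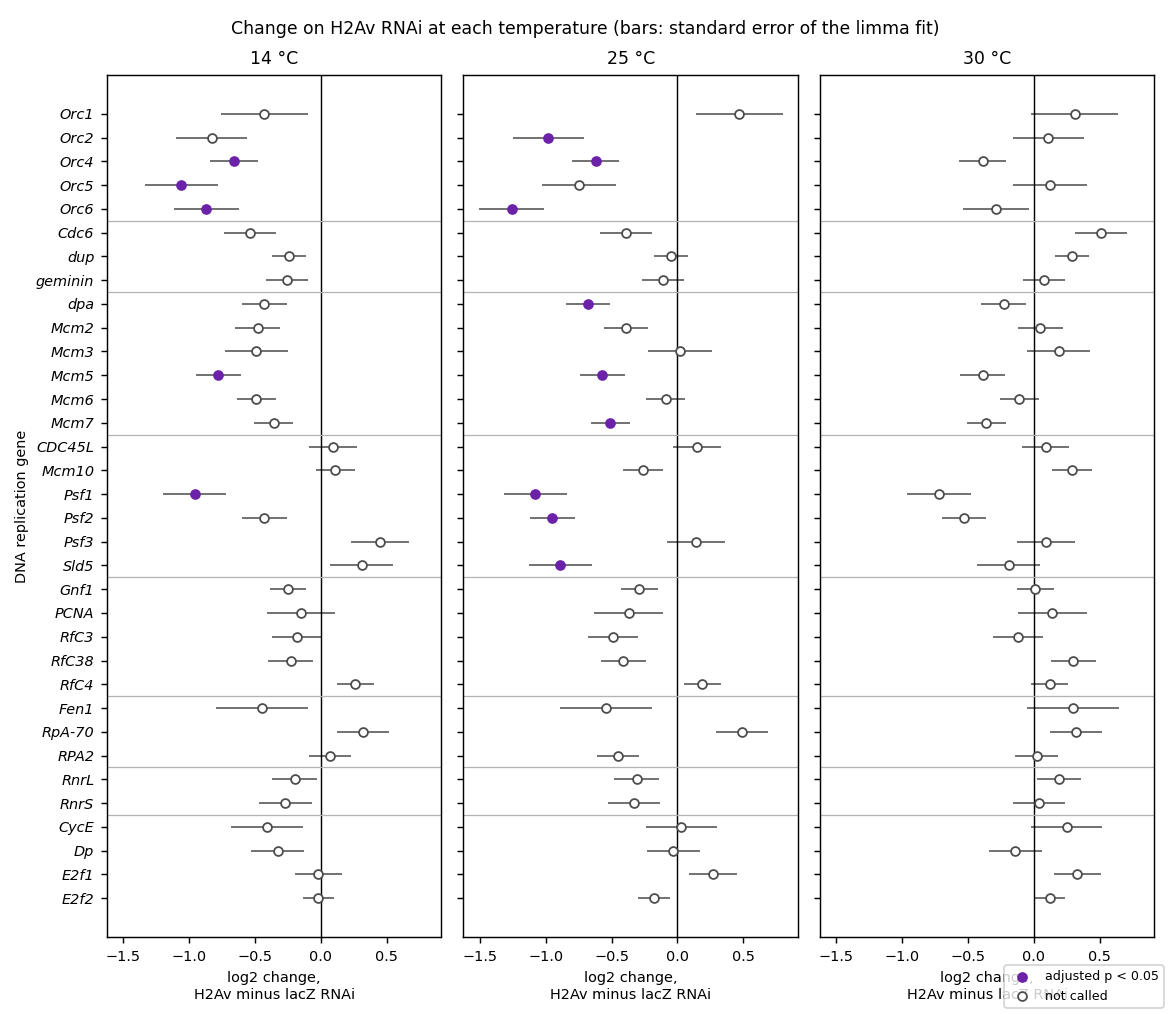
Log2 change on H2Av RNAi relative to lacZ RNAi (x axis) of 34 DNA replication genes (y axis, grey lines separate roles) at 14, 25 and 30 °C, with SE bars and filled points for adjusted p below 0.05. Filled points are *Orc4*, *Orc5*, *Orc6*, *Mcm5* and *Psf1* at 14 °C and 9 genes at 25 °C, all below 0, and 0 at 30 °C.

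Averaged over the 3 temperatures, 10 of 34 genes were lower after H2Av RNAi, against 19.8% of all probes, and 1 was higher, against 16.1% of all probes. *Psf1* had the largest mean change, -0.92 ± 0.14 (adjusted p = 0.00014), followed by *Orc6* (-0.80 ± 0.14), *Psf2* (-0.64 ± 0.10), *Mcm5* (-0.58 ± 0.10), *Orc2* (-0.57 ± 0.16), *Orc4* (-0.56 ± 0.11) and *Orc5* (-0.56 ± 0.16). *dpa* (-0.44 ± 0.10), *Mcm7* (-0.41 ± 0.09) and *Mcm2* (-0.27 ± 0.10) were also lower. *RpA-70*, the large RPA subunit, was the gene that was higher, by 0.37 ± 0.12 (adjusted p = 0.0204), with 0.32, 0.49 and 0.32 at 14, 25 and 30 °C.

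Whether the temperature response differed between the RNAi treatments was tested as an interaction. For 14 against 30 °C, 0 of 34 genes were called in limma (6 at an unadjusted p below 0.05), against 0.409% of all probes. For 14 against 25 °C, 0 were called (2 unadjusted), against 0.00918% of all probes. For 30 against 25 °C, 0 were called (6 unadjusted), against 0.794% of all probes. The unadjusted p was below 0.05 for 1944, 2599 and 2404 of 21775 probes in these comparisons, in the same order. As a description, the change between 14 and 30 °C was lower after H2Av RNAi for 28 of 34 genes, with a median difference of -0.30. The share of all probes in this direction was not computed, and their median difference was -0.04. Without lacZ replicate 1 or 2 at 14 °C, the median over the 34 genes was -0.20 or -0.39. The largest differences were -1.18 ± 0.39 for *Orc5* (adjusted p = 0.318) and -1.05 ± 0.29 for *Cdc6* (adjusted p = 0.173), and for *Sld5* the difference was 0.50 ± 0.35. The *Cdc6* arrays after lacZ RNAi read 11.82, 11.80 and 11.41 at 14 °C and 11.85, 12.17 and 12.24 at 30 °C. After H2Av RNAi they read 11.07, 11.28 and 11.06 against 12.35, 12.55 and 12.91. A gene called after one RNAi treatment and not the other, such as *Cdc6*, *geminin* or *CycE*, was therefore not shown to respond differently.

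For 13 genes, 19 further probes were available. Of the 12 that belonged to genes called between 14 and 30 °C after lacZ RNAi, 10 changed in the same direction, with *Orc5* and 1 of 2 *Dp* probes (0.36 ± 0.80) as exceptions. After H2Av RNAi all 15 such probes did. The 3 further *E2f1* probes gave changes between -0.43 and 0.51, with no call. The size of a decrease varied by probe, for example from -1.56 to -2.83 for *Mcm7* and from -1.01 to -2.02 for *RfC4* after H2Av RNAi.

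**Figure D5:**
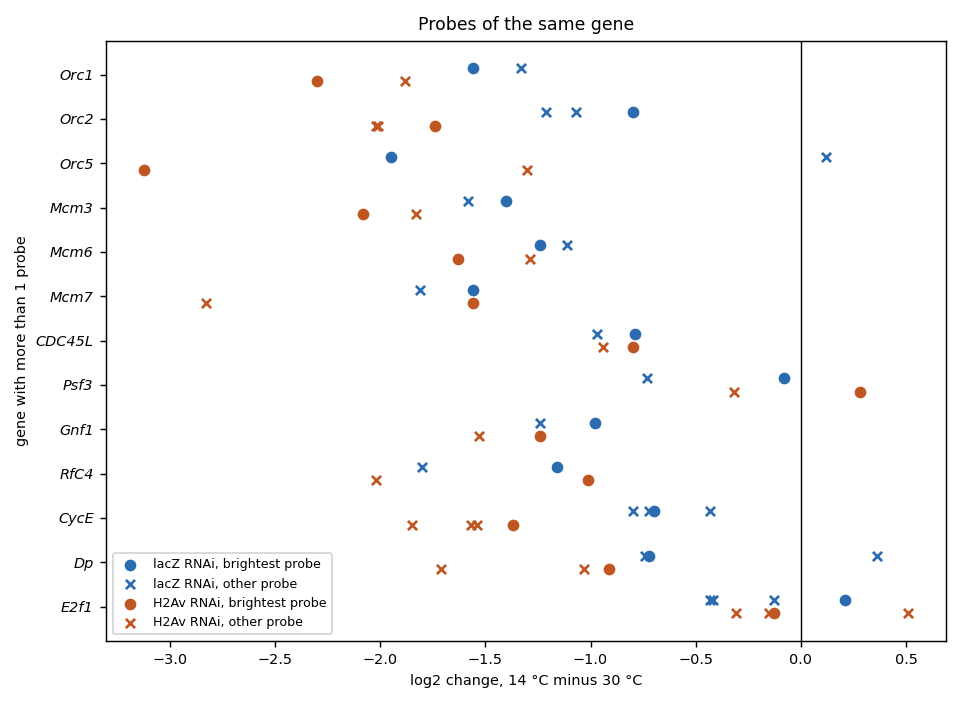
Log2 change between 14 and 30 °C (x axis) for every probe of the 13 DNA replication genes with more than 1 probe (y axis), after lacZ RNAi (blue) and H2Av RNAi (orange). Filled points are the probe reported for each gene and crosses the others, which lie on the same side of 0 for most genes, with *Orc5* (0.12) and *Dp* (0.36) after lacZ RNAi and *E2f1* and *Psf3* as exceptions.

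Other replication genes, from a list of polymerases, fork proteins, origin firing factors, histone chaperones, nucleotide suppliers and cell cycle regulators, were read from the same fit. Of 46 measured, 35 fell between 30 and 14 °C after lacZ RNAi and 37 after H2Av RNAi, against 16.6 and 20.2% of all probes. The median changes were -0.91 and -1.17, and 0 genes were called higher, against 3334 and 3966 of 21775 probes. All 9 polymerase and primase genes fell after both treatments. The largest decreases after lacZ RNAi were those of *Prim1*, a primase subunit (-2.41 ± 0.21), *timeout* (-1.83 ± 0.24) and *ctf4*, which links the helicase to polymerase alpha (-1.74 ± 0.24). After H2Av RNAi they were *mus101*, the *Drosophila* TopBP1 (-2.26 ± 0.67), *Rbf2*, a retinoblastoma family repressor (-2.20 ± 0.21), and *CG12109*, which encodes the large subunit of the CAF-1 histone chaperone (-2.12 ± 0.22).

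On H2Av RNAi, 6 of these 46 genes were lower at 14 °C, 20 at 25 °C and 3 at 30 °C, against 4.36, 15.9 and 7.31% of all probes. At the same temperatures 0, 3 and 1 were higher, against 625, 2442 and 1059 of 21775 probes. At 30 °C the count of genes that were lower corresponds to a share no larger than that of all probes. Among those lower were *Ctf18*, of an alternative clamp loader, with -1.03 ± 0.18 at 14 °C and -1.17 ± 0.18 at 25 °C, and *PolD2*, a polymerase delta subunit, with -0.81 ± 0.15 at 14 °C and -1.16 ± 0.15 at 25 °C. At 30 °C *PolD2* (-0.87 ± 0.15) and *PolE2*, a polymerase epsilon subunit (-0.65 ± 0.18), were lower. In interactions, 0 of the 46 were called, with 6, 5 and 8 at an unadjusted p below 0.05, against 1944, 2599 and 2404 of 21775 probes.

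Because a slide held a single group, the averaged comparisons were also fitted with slide as a random block, in a model without an interaction. The change between 14 and 30 °C was then called for 28 of 34 genes, against 23.1% of all probes called lower, and for 23 genes, against 13.7%, when each slide was reduced to 1 mean and only 6 values per probe entered, a setting added after the data were seen. For H2Av RNAi averaged over temperatures, 9 genes were called with slide as a random block (8 lower, against 16.4% of all probes) and 1 with 1 mean per slide (lower, against 2.92% of all probes). That gene was *Psf1*, at -0.92 in each fit, and a count of 1 in 34 is about the share over all probes.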

How the data were processed

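The deposited scanner files hold spot intensity values from Feature Extraction 10.7.3.1 (45020 spots, 1417 controls), on which the authors reported quantile normalization. The authors' deposited table of log2 values served as an alternative, with column medians from 7.19 to 7.20. Its rows were read as running spot numbers, and the background step behind it is not given in the sources used here. Background-corrected processed intensity was log2-transformed, quantile normalized (limma 3.58.1 in R 4.3.3), freed of outlier-flagged spots (42 to 78 per array) and reduced to the median over spots of a probe. No non-control spot was saturated. Probes well above background on at least 2 arrays of a group were kept, 21775 of 32162. A model of 6 group means over 18 arrays was fitted with lmFit and eBayes, with Benjamini-Hochberg adjustment over all kept probes, and a gene was called at an adjusted p below 0.05. The number of arrays limits the precision, and p-values measure the spread between 3 replicates that share 1 slide. The fitting code was run on simulated data with known changes in 1 group and independent noise. That simulation held no slide or replicate effects, so it cannot show how such effects bear on the calls.

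Of 32162 probes, 19536 matched a RefSeq symbol. The member genes, the list of other replication genes and the markers were chosen with earlier results of these data known. All 35 genes are named, with statistics for those called. The 3 largest changes were named from the other list, except for 1 gene that is not reported here. The study's supplement and figures contributed no values. Alternatives were 75th percentile scaling, normexp (offset 50, on the median signal because no mean signal was used here), filters, array weights, probe medians, a 2-fold threshold, the replicate number as a block, slide, and leaving out each array. Same-numbered arrays deviated together (r over 0.1) in 25 of 45 pairs of groups and replicates, with r from -0.467 to 0.606, so that the numbers were not taken to pair samples. Between H2Av groups every r was positive, from 0.111 to 0.46, and each r below 0 involved a lacZ group. The main fit held no replicate term.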

Additional observations from a re-analysis of the deposited data

How the results depend on the processing

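Single genes' calls were followed for H2Av against lacZ RNAi, 14 against 30 °C, and 30 against 25 °C after H2Av RNAi. None of these changes turned sign under any setting tried. Single calls for 14 against 25 °C, and for 30 against 25 °C after lacZ RNAi, were not followed in this way. Among medians over the 34 genes, that for 30 against 25 °C after lacZ RNAi turned from 0.04 to -0.13 with 75th percentile scaling, where 3 genes were lower and 0 higher, and that of the interaction of 14 against 25 °C from 0.07 to -0.06 with array weights and -0.04 with the probe median. Without lacZ replicate 2 at 25 °C the former was -0.04, and without lacZ replicate 2 at 14 °C or replicate 1 at 25 °C the latter was -0.03 and -0.05. The decreases between 30 and 14 °C kept their counts within 1.5 times under the scaling, background, filter, probe, weight and block settings, and with a 2-fold threshold 17 (lacZ RNAi) and 23 (H2Av RNAi) of 34 genes remained past it. Leaving out each array in turn gave 20 to 26 and 26 to 28 genes for 14 against 30 °C after lacZ and H2Av RNAi, 22 to 26 and 19 to 26 for 14 against 25 °C, 0 to 4 and 0 to 12 for 30 against 25 °C, and 27 to 29 for 14 against 30 °C averaged over RNAi. For H2Av against lacZ RNAi the ranges were 0 to 7 at 14 °C, 3 to 12 at 25 °C, 0 to 2 at 30 °C and 10 to 13 averaged, and 0 to 0 for each interaction.

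Scaling to the 75th percentile gave 1 gene for H2Av RNAi at 14 °C, 1 (higher) at 30 °C, and 2 for 30 against 25 °C after H2Av RNAi. It moved the median over all probes by up to 0.43 (H2Av RNAi at 25 °C, where the share of calls that were higher went from 41.3 to 68.4%), and by 0.12 and 0.11 for 14 against 30 °C after lacZ and H2Av RNAi, where that share went from 48.0 to 57.5% and from 47.4 to 57.8%. For H2Av RNAi at 14 °C and averaged, it went from 39.7 to 63.3% and from 44.8 to 67.7%. With normexp, 1 gene (lower) was called for H2Av RNAi at 30 °C and 5 for 30 against 25 °C after lacZ RNAi, and with the authors' log2 values 1 and 4. With probes above background on all arrays, 2 were called at 30 °C. With the probe median, 1 was called for 30 against 25 °C after lacZ RNAi. With only the arrays compared, 0 and 2 were called for H2Av RNAi at 14 and 25 °C, and 0 and 14 for 30 against 25 °C after lacZ and H2Av RNAi. Array weights gave 9, 14 and 7 for H2Av RNAi at 14, 25 and 30 °C, 9 and 22 for 30 against 25 °C, and 2 for the interaction of 14 against 30 °C and 2 for that of 30 against 25 °C. Of the 14 genes at 25 °C 1 was higher after H2Av RNAi, and of the 7 at 30 °C 2 were. With array weights 1 gene was also called higher at 14 than at 30 °C after H2Av RNAi, beside 29 lower. A 2-fold threshold left 1, 2 and 0 for H2Av RNAi at 14 °C, 25 °C and averaged, 16 for 14 against 25 °C after H2Av RNAi, and 0 and 1 for 30 against 25 °C. One mean per slide, added after the data were seen, left 1 for H2Av RNAi averaged. Apart from fewer arrays or values in the last settings, the cause was not tested.

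The replicate numbers were not taken as pairs. The fit with the replicate block gave 5, 10, 0 and 12 genes for H2Av RNAi at 14, 25 and 30 °C and averaged, 25 and 27 for 14 against 30 °C, 26 and 26 for 14 against 25 °C, 2 and 8 for 30 against 25 °C, 29 for 14 against 30 °C averaged, and 0 for each interaction. For single genes in the comparisons followed, 1837 calls were kept and 125 lost when an array was left out, and 1069 kept and 99 lost under the other settings. Calls for 14 against 25 °C, and for 30 against 25 °C after lacZ RNAi, are not in these totals. Dim probes and 3 arrays per group limit the precision.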
